A study of Mus musculus with 12 samples.

Results

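The enzymes of oxidative phosphorylation were examined in the liver of db/db mice given molecular hydrogen (H2). Their genes were taken from the probe annotation and not from any measured value. A probe belonged to the set when its RefSeq record carried a mouse symbol that begins with Nduf, Uqcr, Cox4 to Cox8 or Atp5, or that is Sdha, Sdhb, Sdhc or Sdhd. The rule found 93 of the 20017 gene symbols on the array, carried by 124 of 39429 probes, and for each gene the brightest probe on average was used. Grouped by the start of the symbol, the 93 genes comprised 38 of complex I, 8 assembly factors of complex I (Ndufaf), 4 of complex II, 8 of complex III, 18 of complex IV and 17 of complex V. Ndufa4 and Ndufa4l2 were thus counted with complex I, and the place of each gene in the enzymes was not checked. The rule took in the Ndufaf assembly factors, which are not subunits of the finished enzyme, and missed Cyc1, a subunit of complex III that was examined separately. None of the 13 subunits encoded by mitochondrial DNA was matched to a probe, so the values concern nuclear genes only.

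All mice were male db/db (BKS.Cg-+Leprdb/+Leprdb/Jcl), which lack a working leptin receptor and become obese and diabetic, and were 8 weeks-old. The mutation was carried by treated and control mice alike. In 3 groups H2 was produced in the stomach from MgH2, given by gavage once a day for 1, 3 or 7 days at 0.9 mg/kg, the dose in the labels (the methods of the study name higher doses), with Mg(OH)2 as the control. In the fourth group the mice drank H2-water, with H2 at 0.8 mM, for 14 days, and the control was degassed water. Each group had 3 two-color arrays, and each array compared Cy5-labeled RNA, pooled from the livers of 3 treated mice, with Cy3-labeled RNA pooled from 3 controls. The value of a gene is therefore the log2 ratio of Cy5 over Cy3, which is above 0 when the signal was higher in the H2 pool. Replicate numbers below are those of the labels.

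The respiratory chain of the inner mitochondrial membrane passes electrons from NADH (complex I) and from succinate (complex II) through ubiquinol to complex III, then by cytochrome c to complex IV, which reduces oxygen. Complexes I, III and IV pump protons, and complex V, the ATP synthase, uses the returning protons to make ATP. Nuclear genes encode most subunits, and the factors NRF-1, GABP (an ETS factor), ERR and YY1, together with the coactivator PGC-1α (Ppargc1a), are known to regulate many of them. In the liver these enzymes use the electrons released by fatty acid oxidation.

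Promoter sequences were read for the members to show whether they hold such sites. The RefSeq promoter table for GRCm38.p6 held 79 promoters, each from 250 bases before to 50 bases after the start, for 74 of the 89 genes measured above background. On either strand, the NRF-1 motif, a near-palindrome of GCGC blocks, was present in 20 of these 79 promoters (25.3%), against 9.52% of the 11757 promoters of genes above background on all 12 arrays and 4.6% of all 32851 promoters. The ETS motif CCGGAAG was present in 19 (24.1%), against 16.8% and 8.86%. The YY1 motif ATGGCGGC was found in 8, against 4.74% and 2.24%, and the ERR motif TCAAGGTCA in 2 (2.53%), against 0.281% and 0.423%. A match is a stretch of letters and not a measured site. The 4 promoters below, from 170 bases before to 30 bases after the start, belong to a pair of genes that were high on all 12 arrays (Uqcrh and Atp5g3) and a pair that were low on all 12 (Sdhd and Cox5a). Capitals mark motif matches. They lie at chr4:116075041-116075240 (minus strand), chr2:73911297-73911496 (minus strand), chr9:50603820-50604019 (minus strand) and chr9:57521062-57521261 (plus strand), in that order.
Uqcrh: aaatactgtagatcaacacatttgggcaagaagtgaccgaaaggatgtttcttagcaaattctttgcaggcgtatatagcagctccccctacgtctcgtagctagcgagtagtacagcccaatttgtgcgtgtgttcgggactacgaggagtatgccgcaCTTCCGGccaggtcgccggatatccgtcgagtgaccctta
Atp5g3: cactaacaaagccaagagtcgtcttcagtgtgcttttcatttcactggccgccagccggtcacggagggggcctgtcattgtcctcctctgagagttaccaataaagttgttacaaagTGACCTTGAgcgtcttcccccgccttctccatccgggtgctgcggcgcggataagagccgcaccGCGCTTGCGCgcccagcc
Sdhd: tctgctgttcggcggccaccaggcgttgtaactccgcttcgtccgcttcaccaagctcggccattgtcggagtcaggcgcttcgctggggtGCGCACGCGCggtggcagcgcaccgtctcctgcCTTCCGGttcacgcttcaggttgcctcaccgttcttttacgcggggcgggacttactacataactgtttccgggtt
Cox5a: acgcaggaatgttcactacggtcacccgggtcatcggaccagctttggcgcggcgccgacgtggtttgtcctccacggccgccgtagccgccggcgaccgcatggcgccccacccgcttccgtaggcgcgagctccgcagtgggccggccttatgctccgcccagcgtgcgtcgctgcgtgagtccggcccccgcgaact
Uqcrh held an ETS match from position -10, counted from the start. Atp5g3 held an ERR match from -52 and an NRF-1 match from 12, and Sdhd an NRF-1 match from -79, an ETS match from -46 and, beyond the printed stretch, an ERR match from 36. Cox5a held none of the 4 motifs.

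On each array 51.8% to 56.6% of the spots exceeded background for both dyes, and saturation was seen in 0 spots. Of 8 hepatocyte markers, 7 exceeded background for both dyes on every array, whereas of 8 muscle markers 0 were, and 5 of these were above background on no array. The member probes were bright, with a median log2 signal of 14.2 against 8.68 for all probes above background on all 12 arrays. The dyes were never swapped, so a dye effect that is constant for a probe and an effect of H2 cannot be told apart in the mean of a group. Such an offset cancels in a difference between groups. The Cy3 control signals of arrays with the same replicate number deviated together across the 1-, 3- and 7-day groups (r from 0.32 to 0.67 in 9 pairs, and from -0.48 to 0.09 between other numbers), so these groups may share control RNA, which the labels do not state. The 3 MgH2 groups are therefore given side by side without any test of overlap. In a bulk tissue, fewer cells of a type and less RNA per cell cannot be told apart.

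Of the 93 genes, 89 exceeded background for both dyes on every one of the 12 arrays and were tested. Their ratios were small in every group. After 1 day of MgH2, 12 members were higher and 6 lower in the H2 pool at an adjusted P under 0.05 by limma (20.2% of 89, against 9.39% of all 19660 probes tested, 5.15% higher and 4.24% lower). After 3 days, 27 were higher and 4 lower (34.8%, against 23.4%, 12.3% higher and 11.1% lower). After 7 days, 18 were higher and 4 lower (24.7%, against 29.5%, 15.3% higher and 14.3% lower). After 14 days of H2-water, 19 were higher and 4 lower (25.8%, against 8.84%, 4.92% higher and 3.91% lower). The share of members called was thus above the share of all probes at 1, 3 and 14 days, and below it at 7 days. The member probes were brighter than most probes, as given above, and no share here or below was matched on signal. What part the signal has in these shares was not tested. Among the called members the median size was 0.17, 0.18, 0.15 and 0.19 on the log2 scale at 1, 3, 7 and 14 days, a fold of 1.11 to 1.14. Each of these members had the same sign on all 3 arrays of its group, which largely follows from a mean that passes the test. The calls rested on the spread shared by all 12 arrays. When the 3 arrays of a group were tested alone, only Uqcrh at 7 days was called among the members. Over all probes that fit called 99 higher and 2 lower of 19660 at 1 day and 185 and 107 of 19414 at 3 days. It called 1172 and 1006 of 19455 at 7 days and 372 and 129 of 20411 at 14 days. With each channel divided by its total the members split into 5 higher and 7 lower at 1 day, 19 and 5 at 3 days, 10 and 7 at 7 days and 10 and 5 at 14 days. Over all probes that split was 717 and 1580, 1759 and 2821, 2382 and 3351, and 790 and 1175. Leaving out replicate 1, 2 or 3 left 4, 1 and 5 of the 18 members called at 1 day, 19, 15 and 15 of the 31 at 3 days, 11, 13 and 11 of the 22 at 7 days and 4, 3 and 2 of the 23 at 14 days. The calls that held in all 3 of these fits were Uqcrh at 1 day, 11 members at 3 days, 9 at 7 days and Ndufa9 at 14 days.

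At 1 day the members called higher with the largest mean log2 ratios were Uqcrh (0.42), Uqcr10 (0.25), Ndufb2 (0.24), Ndufb6 (0.20), Sdhb (0.18), Cox7b (0.18), Atp5k (0.17), Atp5j (0.15), Ndufs7 (0.15) and Ndufa1 (0.15). Among those called lower were Sdhd (-0.20), Cox4i1 (-0.19), Cox5a (-0.17), Ndufaf7 (-0.16) and Sdhc (-0.16). At 3 days the higher members were led by Uqcrh (0.43), Uqcr10 (0.29), Ndufb6 (0.24), Atp5g3 (0.24), Ndufb2 (0.23), Ndufaf6 (0.23), Cox7b (0.22), Ndufa9 (0.21), Cox6b2 (0.21) and Ndufb5 (0.21), and the lower ones were Cox4i2 (-0.20), Cox4i1 (-0.16), Cox5a (-0.14) and Ndufaf7 (-0.13). At 7 days the leading higher members were Uqcrh (0.37), Uqcr10 (0.21), Ndufaf6 (0.21), Ndufb5 (0.21), Ndufv2 (0.19), Ndufa9 (0.18), Atp5g3 (0.17), Ndufs4 (0.17), Ndufb6 (0.16) and Cox7b (0.15), with Cox4i1 (-0.17), Ndufaf7 (-0.14), Cox5a (-0.12) and Ndufaf3 (-0.12) lower. At 14 days they were Uqcrh (0.33), Atp5g3 (0.24), Ndufb8 (0.23), Ndufa9 (0.22), Ndufb2 (0.22), Ndufa10 (0.20), Sdhb (0.20), Cox7b (0.20), Atp5b (0.19) and Ndufb6 (0.19), with Ndufaf5 (-0.26), Cox5a (-0.20), Cox4i1 (-0.19) and Sdhd (-0.16) lower. Uqcrh led in each group, and Cox4i1 and Cox5a were among the lower members of each.

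**Figure D1:**
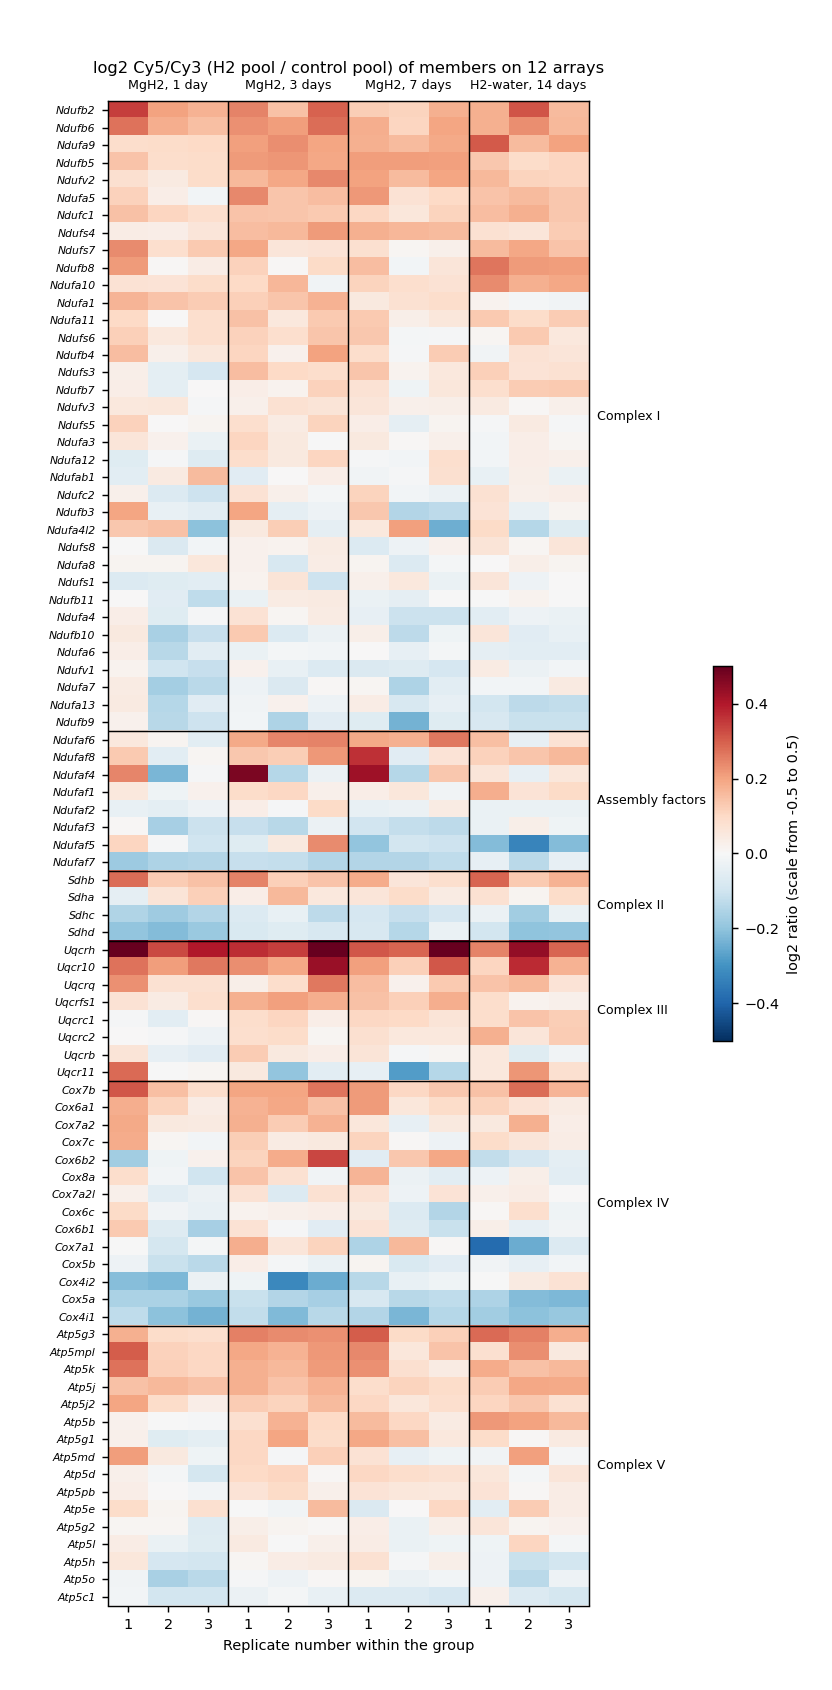
Log2 ratio of Cy5 (H2 pool) over Cy3 (control pool) for the members above background, apart from a few not reported here (rows, grouped by complex and ordered by their mean over 12 arrays) on each of the 12 arrays (columns). Red is higher and blue lower in the H2 pool on a scale that ends at 0.5 in both directions, beyond which Uqcrh lies on 3 arrays (0.52, 0.58 and 0.50). Rows keep much of their color across the 4 groups, as for Uqcrh (red) and Cox4i1 and Cox5a (blue).

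As a set, the members lay slightly above 0. The median log2 ratio over the 89 members was 0.007 at 1 day, 0.071 at 3 days, 0.031 at 7 days and 0.037 at 14 days, while the median of all probes tested was within 0.01 of 0 in each group. On the single arrays the median of the members was 0.059, -0.006 and -0.014 at 1 day, 0.089, 0.049 and 0.052 at 3 days, 0.069, -0.004 and 0.039 at 7 days and 0.059, 0.033 and 0.035 at 14 days. The 3-day and 14-day arrays were all above 0, and the arrays of 1 and 7 days lay on both sides of it. Of the 89 members, 48, 69, 59 and 62 had a group mean above 0 at 1, 3, 7 and 14 days (53.9%, 77.5%, 66.3% and 69.7%), against 48.9%, 50.5%, 51.3% and 48.6% of all probes. Dividing each channel by its total moved the medians of the members to -0.028, 0.041, 0.006 and 0.015, so the sign at 1 day depended on the scaling.

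**Figure D2:**
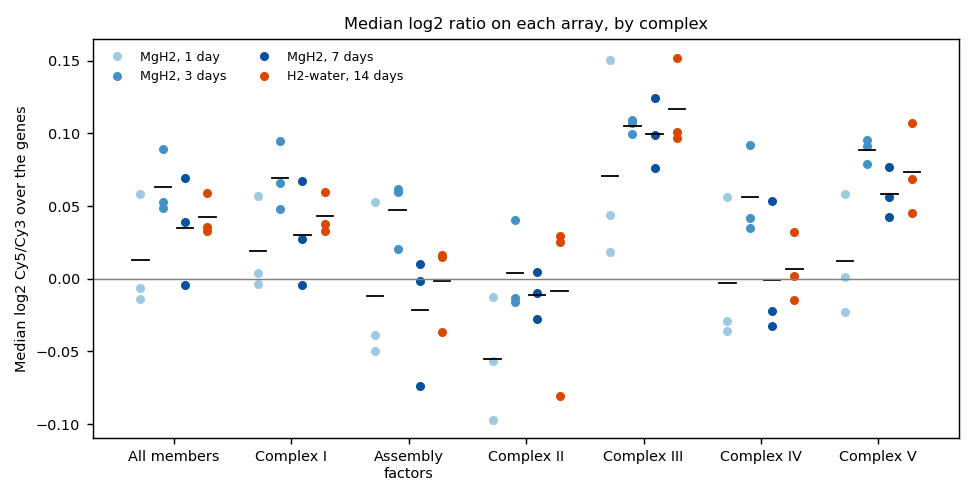
Median log2 ratio on each array (points, 3 per group) over all members and over the members of each complex, with the mean of the 3 arrays as a bar. Complex III was above 0 on all 12 arrays, from 0.018 to 0.15, and complex II lay on both sides of 0.

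The median of the complex III genes was above 0 on all 12 arrays, from 0.018 to 0.152, and its group medians were 0.081, 0.102, 0.096 and 0.120 at 1, 3, 7 and 14 days. The group medians of complex V were 0.006, 0.071, 0.060 and 0.048, those of complex I 0.035, 0.060, 0.031 and 0.031, those of complex IV -0.026, 0.047, 0.014 and 0.006, and those of complex II, of 4 genes, -0.055, 0.005, -0.010 and -0.009. No test was made between complexes, since their genes are not replicates.

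Of the 89 members, 41 (46.1%) were called in at least 1 group, against 41.2% of the 18397 probes above background on all arrays. Among the 89, 32 were always higher (36%, against 20.4%) and 9 always lower (against 20.2%), and no member was called in opposite directions (0.576% of all probes were). The share called in any group was thus close to that of all probes. In all 4 groups 8 members were called (8.99%, against 3.05%), 6 higher (6.74%, against 2.14%) and 2 lower (2.25%, against 0.891%). The MgH2 groups may share control RNA, as given above. These were Uqcrh of complex III, Ndufb5, Ndufb6 and Ndufc1 of complex I, Cox7b of complex IV and Atp5j of complex V, which were higher, and Cox4i1 and Cox5a of complex IV, which were lower. A further 10 members were called in 3 groups (11.2%, against 4.33%). On all 12 arrays 21 of the 89 members (23.6%) were above 0 and 5 (5.62%) were below 0, against 7.26% and 5.8% of the 18397 probes above background on all arrays. The 5 below 0 throughout were Cox4i1, Cox5a, Sdhc, Sdhd and Ndufaf7.

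**Figure D3:**
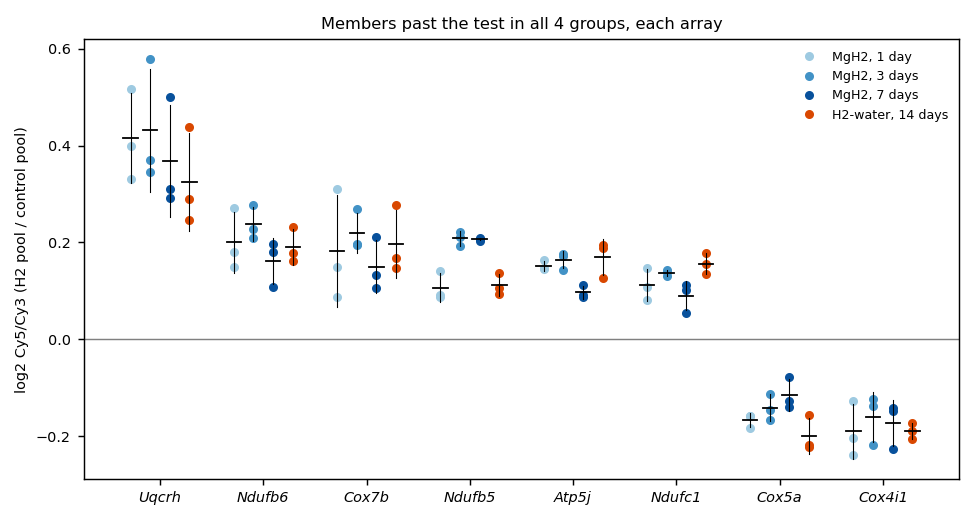
Log2 ratio on each array (points, colored by group) of the 8 members called in all 4 groups, with the mean (bar) and SD (line) of the 3 arrays. Uqcrh lies between 0.25 and 0.58, 5 other genes lie above 0 on every array, and Cox5a and Cox4i1 lie below 0 on every array.

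Within complex I, which has the most members, 6 of 38 genes were higher and 1 lower at 1 day, and 11, 7 and 10 were higher with 0 lower at 3, 7 and 14 days. The share called was 18.4%, 28.9%, 18.4% and 26.3% at 1, 3, 7 and 14 days. Of all probes, 9.39%, 23.4%, 29.5% and 8.84% were called, so the share in complex I was the lower at 7 days. Of all probes, 5.15%, 12.3%, 15.3% and 4.92% were called higher. The accessory subunit Ndufb5, of the membrane arm, had log2 ratios of 0.14, 0.088 and 0.091 at 1 day, 0.21, 0.22 and 0.19 at 3 days, 0.21, 0.21 and 0.20 at 7 days and 0.14, 0.093 and 0.11 at 14 days. Its 3- and 7-day arrays were all higher than its 1- and 14-day arrays. The group means were 0.11, 0.21, 0.21 and 0.11 (adjusted P = 0.042, 0.0011, 0.000758 and 0.035). Ndufb2, also of the membrane arm, had the highest mean of complex I over the 12 arrays, at 0.21, and its group means were 0.24, 0.23, 0.14 and 0.22, called at 1, 3 and 14 days (adjusted P = 0.014, 0.00781 and 0.0214). Ndufa9, a subunit near the junction of the arms, had 0.087, 0.093 and 0.10 at 1 day, which was not called, and means of 0.21, 0.18 and 0.22 at 3, 7 and 14 days (adjusted P = 0.00239, 0.0038 and 0.00418).

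The paired catalytic subunits of complex I gave different ratios. Ndufv2, an iron-sulfur protein of the NADH-oxidizing part, had a mean of 0.073 at 1 day and was higher at 3, 7 and 14 days (0.20, 0.19 and 0.13, adjusted P = 0.00208, 0.00183 and 0.0296). Its partner Ndufv1, which binds NADH and FMN, was called in no group, with group means of -0.065, -0.029 and -0.073 at 1, 3 and 7 days. Ndufs4, an accessory subunit of the NADH-oxidizing part, had 0.036, 0.033 and 0.059 at 1 day and was higher at 3 and 7 days (0.18 and 0.17, adjusted P = 0.00294 and 0.00254). Ndufb9 had the lowest mean of complex I over the 12 arrays, at -0.092, and was called in no group.

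Of the 8 Ndufaf genes, Ndufaf6, which is needed for building complex I, had 0.053, 0.014 and -0.053 at 1 day and was higher at 3 days (0.19, 0.24 and 0.25, adjusted P = 0.00466) and at 7 days (0.19, 0.18 and 0.26, adjusted P = 0.00447). It had 0.15, -0.039 and 0.072 at 14 days. Ndufaf7, a methyltransferase, was lower at 1, 3 and 7 days (-0.16, -0.13 and -0.14, adjusted P = 0.0123, 0.0166 and 0.00749) and had a mean of -0.072 at 14 days. Ndufaf5 was lower at 14 days (-0.22, -0.33 and -0.22, adjusted P = 0.0264) and Ndufaf3 at 7 days (-0.095, -0.12 and -0.13, adjusted P = 0.0462). Ndufaf4 was called in no group and differed most between arrays, with 0.24, -0.23 and -0.0063 at 1 day, 0.47, -0.14 and -0.030 at 3 days and 0.43, -0.14 and 0.13 at 7 days. Its replicate-1 arrays were the highest in each of these groups.

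Complex II, succinate dehydrogenase, takes part in both the respiratory chain and the citric acid cycle. The iron-sulfur subunit Sdhb was higher at 1, 3 and 14 days (0.18, 0.17 and 0.20, adjusted P = 0.0376, 0.0275 and 0.0295). The membrane anchor Sdhd had -0.20, -0.22 and -0.19 at 1 day, -0.077, -0.059 and -0.078 at 3 days, -0.081, -0.14 and -0.031 at 7 days and -0.090, -0.20 and -0.20 at 14 days. All 12 arrays were below 0, and it was called lower at 1 and 14 days (adjusted P = 0.0081 and 0.0187). The other anchor, Sdhc, was lower at 1 day (-0.16, adjusted P = 0.0272), and the flavoprotein Sdha was called in no group (0.046, 0.083, 0.065 and 0.062). The sign of Sdhb depended on the probe, as given below.

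The largest mean ratios of the 89 tested members were those of a complex III gene. Uqcrh, the hinge protein at cytochrome c1, had log2 ratios of 0.52, 0.33 and 0.40 at 1 day, 0.37, 0.35 and 0.58 at 3 days, 0.31, 0.29 and 0.50 at 7 days and 0.25, 0.44 and 0.29 at 14 days. Every array was above 0, and the 4 groups overlapped. The means of 0.42, 0.43, 0.37 and 0.33 are folds of 1.33, 1.35, 1.29 and 1.25 (adjusted P = 0.00435, 0.00155, 0.00223 and 0.0135). At 14 days the call was lost when replicate 1, 2 or 3 was left out (adjusted P = 0.0514, 0.0961 and 0.0723). Uqcr10, a small subunit of the same complex, was higher at 1, 3 and 7 days (0.25, 0.29 and 0.21, adjusted P = 0.0337, 0.00967 and 0.0272) and had 0.11, 0.37 and 0.17 at 14 days. The Rieske iron-sulfur protein Uqcrfs1 was higher at 3 and 7 days (0.19 and 0.15, adjusted P = 0.00255 and 0.00511), with 0.072, 0.039 and 0.086 at 1 day and 0.086, 0.016 and 0.025 at 14 days. The core proteins Uqcrc1 and Uqcrc2 were higher at 14 days (0.12 and 0.12, adjusted P = 0.0397 and 0.0465), and Uqcrc1 also at 7 days (0.089, adjusted P = 0.0493). Uqcr11 had the lowest mean of the complex over the 12 arrays, at -0.0021, and was called in no group.

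Complex IV, cytochrome c oxidase, held the gene with the lowest mean over the 12 arrays. Cox4i1, the subunit IV of most tissues, had -0.13, -0.20 and -0.24 at 1 day, -0.12, -0.22 and -0.14 at 3 days, -0.15, -0.23 and -0.14 at 7 days and -0.17, -0.21 and -0.19 at 14 days. All 12 arrays were below 0 and the groups overlapped, with means of -0.19, -0.16, -0.17 and -0.19 (adjusted P = 0.0113, 0.0107, 0.00548 and 0.011). Cox5a, which lies next to subunit IV in the enzyme, had means of -0.17, -0.14, -0.12 and -0.20 (adjusted P = 0.0103, 0.0094, 0.0172 and 0.00414). The calls of Cox4i1 in all 4 groups and of Cox5a at 1, 3 and 7 days depended on the normalization. After normexp background correction and loess the means of Cox4i1 were -0.085, -0.028, -0.0071 and -0.086, with no call, and those of Cox5a at 1, 3 and 7 days were -0.080, -0.033 and -0.026, also with no call. At 14 days Cox5a was still lower (-0.12, adjusted P = 0.0263). Cox7b, a small subunit of the enzyme, was higher in all 4 groups (0.18, 0.22, 0.15 and 0.20, adjusted P = 0.039, 0.00936, 0.036 and 0.0303).

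Several complex IV genes are isoforms of other tissues. Cox6a2 and Cox8b, of heart and skeletal muscle, and Cox7b2 and Cox8c, of testis, were the 4 members not tested. Cox6a2 was above background in both channels on 5 of 12 arrays and the other three on 0. Cox7a1, the heart and skeletal muscle isoform of subunit VIIa, was above background on all 12 arrays but called in no group, with 0.18, 0.060 and 0.11 at 3 days and -0.39, -0.25 and -0.068 at 14 days. Its group means spanned 0.35 on the log2 scale, the widest range of the 89 members. Cox7a2, the isoform of most tissues, was higher at 3 days (0.18, 0.13 and 0.17, adjusted P = 0.0225). Cox4i2, known from lung, was lower at 3 days (-0.023, -0.32 and -0.25, adjusted P = 0.0357), and the testis isoform Cox6b2 was higher at 3 days (0.11, 0.19 and 0.33, adjusted P = 0.0276).

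In complex V, 2, 7, 4 and 4 of 17 genes were higher at 1, 3, 7 and 14 days and 0 were lower. The share called was 11.8%, 41.2%, 23.5% and 23.5%, against 9.39%, 23.4%, 29.5% and 8.84% of all probes, and thus lower than that of all probes at 7 days. Of all probes, 5.15%, 12.3%, 15.3% and 4.92% were called higher. Atp5g1, Atp5g2 and Atp5g3 encode the same c subunit of the proton-driven ring. Atp5g3 had 0.18, 0.093 and 0.083 at 1 day, and was higher at 3, 7 and 14 days (0.24, 0.17 and 0.24, adjusted P = 0.00492, 0.0151 and 0.0104). Atp5g1 had 0.026, -0.060 and -0.048 at 1 day, was higher at 3 and 7 days (0.13 and 0.13, adjusted P = 0.0355 and 0.0283) and had 0.093, 0.0072 and 0.045 at 14 days. Atp5g2 was called in no group, with means of -0.017, 0.016, 0.010 and 0.032. Atp5j, coupling factor 6 of the peripheral stalk, was higher in all 4 groups (0.15, 0.16, 0.097 and 0.17, adjusted P = 0.0117, 0.00377, 0.0285 and 0.00679). The catalytic β subunit Atp5b had a mean of 0.0057 at 1 day and was higher at 3, 7 and 14 days (0.12, 0.10 and 0.19, adjusted P = 0.0306, 0.0451 and 0.00854). Atp5c1, the γ subunit, had the lowest mean of the complex over the 12 arrays, at -0.053, with no call.

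The differences between groups addressed whether the ratios changed with the length and kind of H2 intake. No member passed the test in any of the 4 contrasts when fitted over all 12 arrays without a block, in which 0.0208% (3 days minus 1 day), 6.98% (7 days minus 1 day), 0% (7 days minus 3 days) and 6.61% (14 days minus 7 days) of all probes were called by limma. Of all probes, 0.0156% were called higher and 0.00521% lower at 3 days than at 1 day, 3.28% and 3.7% at 7 days than at 1 day, 0% and 0% at 7 days than at 3 days, and 3.45% and 3.15% at 14 days than at 7 days. At an unadjusted P under 0.05 there were 14, 10, 3 and 8 of the 89 members (15.7%, 11.2%, 3.37% and 8.99%), against 15.4%, 25.2%, 4.74% and 24.8% of all probes. The calls over all probes for 7 days minus 1 day fell from 1336 to 0 with the slide as a block and to 1 without replicate 3. With the replicate number as a block they rose, to 1180 higher and 1390 lower. That block gave 17 higher and 47 lower for 3 days minus 1 day, and 1327 and 1161 for 14 days minus 7 days. In the fit without a block, the median half-width of the 95% interval of a difference was 0.118 on the log2 scale. That fit and its intervals leave out the pairing of the MgH2 arrays by replicate number. The 3-day means were above the 1-day means for 75 of 89 members (84.3%, against 52.1% of all probes), with a median difference of 0.042, and the 7-day means were above the 3-day means for 12 members (13.5%, against 50% of all probes), with a median difference of -0.036. Both contrasts, and the counts of arrays below, use the same 3-day arrays with opposite sign, so they are not separate results. The 7-day means were above the 1-day means for 53 members (59.6%, against 51.9%) and the 14-day means above the 7-day means for 53 (59.6%, against 47.5%). The arrays of 3 days lay wholly above those of 1 day for 22 members (24.7%, against 10.4% of all probes) and wholly below for 0 (against 8.87%). For 7 days against 1 day the counts were 18 above (20.2%, against 15.3%) and 4 below (4.49%, against 13.2%). For 7 days against 3 days they were 0 above (against 4.27%) and 11 below (12.4%, against 3.96%). For 14 days against 7 days they were 14 above (15.7%, against 15.2%) and 11 below (12.4%, against 17.2%).

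**Figure D4:**
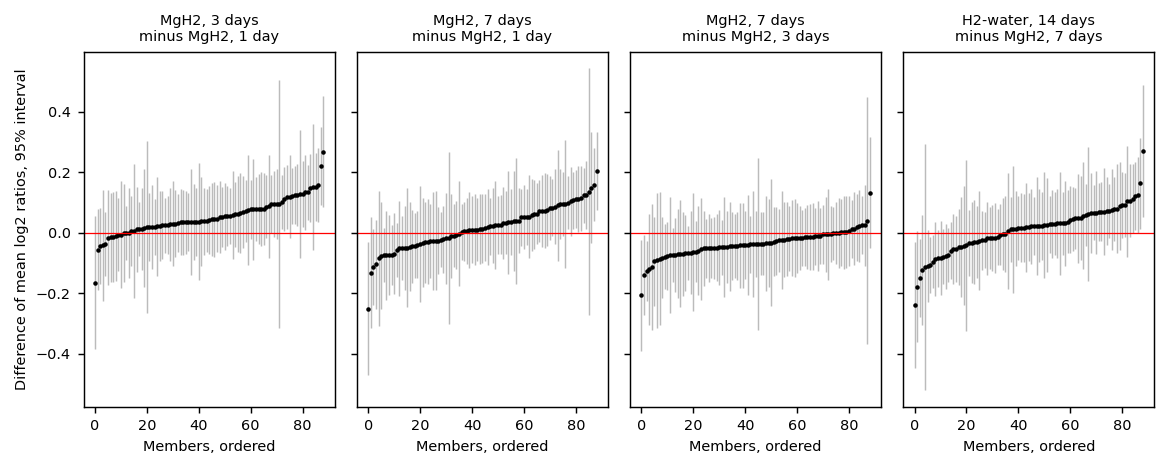
Difference of the mean log2 ratios between groups for the 89 members (points, ordered within each panel) with 95% intervals (lines). Most points of 3 days minus 1 day lie above 0 and most of 7 days minus 3 days below it, and no member passed the test over all probes in the fit without a block. Both of these panels use the same 3-day arrays, with opposite sign.

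The difference with the lowest adjusted P was that of Ndufaf6, at 0.20 for 7 days minus 1 day (95% interval 0.076 to 0.33, adjusted P = 0.0611), and this gene passed after normexp and loess (0.21, adjusted P = 0.0393). With the slide as a block it was 0.12 (adjusted P = 0.745). For 3 days minus 1 day it was 0.22 (0.093 to 0.35, adjusted P = 0.127). Cox6b2 differed by 0.27 between 3 days and 1 day (0.085 to 0.45, adjusted P = 0.176). For 14 days minus 7 days it differed by -0.18 (adjusted P = 0.215), which passed with the replicate number as a block (adjusted P = 0.0473). Uqcr11 differed by -0.25 for 7 days minus 1 day (-0.47 to -0.031, adjusted P = 0.147) and by 0.27 for 14 days minus 7 days (0.051 to 0.49, adjusted P = 0.122). With the replicate number as a block the adjusted P of 7 days minus 1 day was 0.0938 over all arrays and 0.0315 over the MgH2 arrays only, a fit chosen after seeing the data. With the slide as a block the difference was -0.083 (adjusted P = 0.909). These members were chosen after their values were seen. The slides held the groups unevenly. The median difference of 3 days minus 1 day was 0.063 within slide 2, which held the 3 arrays of 1 day and 1 array of 3 days, and that of 7 days minus 3 days was -0.021 within slide 3, which held 2 arrays of each. Between arrays of the same replicate number, 3 days minus 1 day gave medians of 0.0054, 0.060 and 0.088 for numbers 1, 2 and 3. No slide held both 1-day and 7-day arrays, and their slides are linked only through the 3-day arrays, on which the values with the slide as a block rest. The slide of the 14-day arrays held no other group, and these arrays were extracted with an earlier version of the scanner software per the file headers, so slide, software and group cannot be told apart at 14 days.

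The pattern of high and low members recurred between the MgH2 groups and the H2-water group, which share no arrays. Over the 89 members, the mean log2 ratios of 14 days correlated with those of 1, 3 and 7 days at r = 0.76, 0.66 and 0.73, and over the 18397 probes above background on all arrays at 0.33, 0.29 and 0.31. This is a description across genes, which are not independent, and all arrays share the probes and the dye orientation. The 18397 probes were not matched to the brighter member probes on signal. The sign of the mean was the same at 14 days and at 1, 3 and 7 days for 69, 72 and 70 of the 89 members (77.5%, 80.9% and 78.7%), against 66.3%, 64.4% and 63.3% of the 18397 probes. The range of the 4 group means was under 0.2 for 83 of 89 members, with a median of 0.089.

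**Figure D5:**
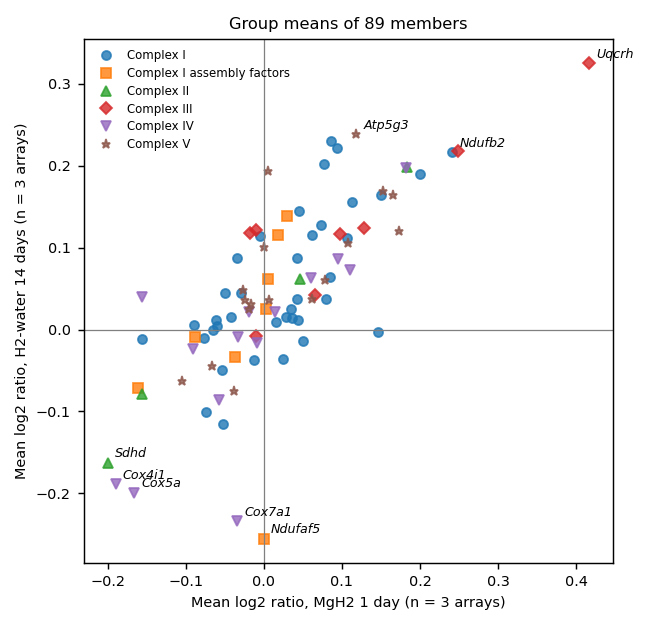
Mean log2 ratio of each of the 89 members after 14 days of H2-water (vertical) against that after 1 day of MgH2 (horizontal), 3 arrays each, with symbols by complex. Uqcrh is highest on both axes, and Sdhd, Cox4i1 and Cox5a are low on both.

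For 24 members the array carried further probes, and these did not always give the same ratio. A further probe and the brightest probe of the gene differed by a median of 0.076 to 0.090 on the log2 scale in the 4 groups, and 8 to 14 of 29 or 30 further probes had the opposite sign. Both probes of Uqcrh were higher in all 4 groups, at 0.42 and 0.41 at 1 day, 0.43 and 0.43 at 3 days, 0.37 and 0.37 at 7 days and 0.33 and 0.28 at 14 days. All 3 probes of Uqcr10 were higher at 3 days (0.29, 0.22 and 0.27) and at 7 days (0.21, 0.17 and 0.22). The second probe of Ndufb6 gave 0.058, 0.096, 0.076 and 0.079 at 1, 3, 7 and 14 days, with no call, so the calls of this gene in all 4 groups rested on its brightest probe. The second probe of Ndufb5 gave 0.051, 0.12, 0.13 and -0.00039 and was called at 3 and 7 days only. In contrast, the brightest probe of Sdhb gave 0.18, 0.17, 0.11 and 0.20 and the other gave -0.092, -0.087, -0.098 and 0.00067, so the sign for this gene depended on the probe at 1, 3 and 7 days. For Atp5g2 the brightest probe gave 0.010 and 0.032 at 7 and 14 days and the other -0.15 and -0.20, called lower (adjusted P = 0.0114 and 0.00821). The 4 dimmer probes of Atp5l, a membrane subunit of the ATP synthase, were all called higher at 3 days (0.13 to 0.31) while the brightest gave 0.023. Ndufa5, with means of 0.18, 0.13 and 0.15 at 3, 7 and 14 days, had a further probe at 0.020, -0.024 and -0.050. For Atp5j2 the brightest probe gave 0.11, 0.13, 0.082 and 0.11 at 1, 3, 7 and 14 days, called higher at 3 days (adjusted P = 0.0245 by limma). Its other probe gave -0.095, -0.057, -0.099 and -0.088, with no call, so the sign for this gene depended on the probe in every group. Of the 115 mouse symbols under the rule in RefSeq, 19 are pseudogenes, and which transcripts a probe also binds was not tested.

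Among genes of the same pathway that the symbol rule leaves out, Cyc1 (cytochrome c1) had -0.15, -0.15 and -0.12 at 1 day, which was lower (adjusted P = 0.0168), and means of -0.065, -0.045 and 0.070 thereafter with no call. Cycs (cytochrome c) was called in no group. For the lists that follow, the share of all probes called was 9.39%, 23.4%, 29.5% and 8.84% at 1, 3, 7 and 14 days. Of 32 or 33 further assembly factors tested, 2 were higher and 2 lower at 1 day, 2 and 2 at 3 days, 2 and 3 at 7 days and 3 and 0 at 14 days. Those higher in all 4 groups were Lrpprc, which stabilizes mitochondrial mRNAs (0.30, 0.33, 0.27 and 0.22, adjusted P = 0.00579, 0.00171, 0.0029 and 0.0242), and Sdhaf4, which assists the assembly of complex II (0.23, 0.23, 0.13 and 0.24, adjusted P = 0.0112, 0.0054, 0.0366 and 0.00943). Foxred1 and Surf1, which assist complexes I and IV, were lower at 1 day (-0.26 and -0.13). Acad9 and Cox19 were lower at 3 and 7 days (-0.18 and -0.19 for Acad9, -0.15 and -0.26 for Cox19).

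Of 11 tested genes for electron carriers and for nucleotide and phosphate exchange, 0, 3, 1 and 1 were higher and 2, 2, 2 and 0 lower at 1, 3, 7 and 14 days. Etfdh, which passes electrons of fatty acid oxidation to ubiquinone, was higher at 3, 7 and 14 days (0.23, 0.23 and 0.24, adjusted P = 0.00173, 0.00112 and 0.0026). Ucp2, a mitochondrial carrier, was lower at 3 and 7 days (-0.52 and -0.55, adjusted P = 0.0046 and 0.00216). Of 14 genes of the citric acid cycle, 0, 4, 4 and 3 were higher and 1, 1, 0 and 0 lower. Idh3a, a subunit of isocitrate dehydrogenase, was higher at 3 and 7 days (0.39 and 0.41, adjusted P = 0.0112 and 0.00683), and Sucla2, of succinyl-CoA ligase, at 3, 7 and 14 days (0.24, 0.27 and 0.20, adjusted P = 0.00621, 0.00214 and 0.0275).

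Of 16 regulators of mitochondrial biogenesis, 1, 4, 4 and 2 were higher and 2, 0, 0 and 0 lower at 1, 3, 7 and 14 days. Ppargc1a had 0.017, 0.28 and -0.077 at 1 day, 0.42, 0.89 and 0.43 at 3 days, 0.98, 0.60 and 0.74 at 7 days and 0.46, -0.58 and 0.093 at 14 days. It was called higher at 3 and 7 days (0.58 and 0.77, adjusted P = 0.033 and 0.00768). The call at 3 days was lost without replicate 1, 2 or 3 (adjusted P = 0.0669, 0.199 and 0.0768) and that at 7 days without replicate 1 (adjusted P = 0.0563). Nrf1, which encodes NRF-1, was higher in all 4 groups (0.15, 0.29, 0.48 and 0.19, adjusted P = 0.0249, 0.000609, 1.13e-05 and 0.00955). Gabpa (-0.019, 0.025, 0.051 and 0.054) and Esrra (-0.12, 0.11, 0.074 and -0.083), which encode a GABP subunit and ERRα, were called in no group. Tfam, which packages and transcribes mitochondrial DNA, was lower at 1 day (-0.22, -0.21 and -0.14, adjusted P = 0.0258) and not called later. Polrmt, the mitochondrial RNA polymerase, and Tfb2m, its partner at promoters, were higher at 3 days (0.27 and 0.23) and 7 days (0.27 and 0.21).

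Markers of cell types moved with some groups. The summed signal of 8 hepatocyte markers had median log2 ratios of 0.085, 0.15, 0.23 and 0.037 at 1, 3, 7 and 14 days, over arrays from -0.077 to 0.26, and 0, 2, 4 and 1 of them were called higher. The medians over the single markers were 0.0098, 0.12, 0.20 and -0.12, and 2 markers were called lower at 14 days than at 7 days. That of 7 immune cell markers was 0.0092, -0.27, -0.24 and -0.011, with 3 of 6 tested called lower at 7 days. The 6 blood cell markers ranged from -0.92 to 0.46 between arrays. The 8 cholangiocyte and stellate cell markers had medians from -0.19 to 0.074, and the 9 pancreas acinar markers from -0.17 to 0.051. Of 4 brown fat markers, 1 was above background on all arrays and 2 on no array. Their summed signal had medians of 0.62, 0.27, -0.26 and -1.2, and 1 was called lower at 7 days. The part of these shifts in the ratios of the members was not tested.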

How the data were processed

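RNA from livers of db/db mice was hybridised by the authors to 12 two-color Agilent arrays, with a Cy5-labeled pool of H2-treated mice and a Cy3-labeled pool of control mice on each. The deposited scanner files hold background-subtracted and dye-normalized signal intensity values for each spot, made per the labels with Agilent Feature Extraction 10.10.1. Per the file headers the 14-day arrays were extracted with an earlier version than the other 9. The deposited scanner files also give the log10 ratio of Cy5 over Cy3 that the software computed. The deposited series table holds the log2 ratio, which differed from that log10 ratio, once put on the log2 scale, by at most 1.39e-06. An array held 44397 features, of which 43020 were no controls and covered 39429 probes.

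Here the log2 ratio of the processed signals was used without further scaling. Non-uniform and population-outlier spots (160 to 244 per array) were left out, and spots of a probe were averaged. Symbols came from RefSeq records (67.0% of probes matched). The fit was made with limma 3.58.1 in R 4.3.3 over all 12 arrays, with 1 mean per group tested against 0 and 4 contrasts between groups, two-sided, with Benjamini-Hochberg adjustment over all probes above background in both channels on the arrays compared. A gene was called at an adjusted P under 0.05. The fit was tested on simulated ratios with known changes, of which the smaller ones were mostly not called. The simulated noise was drawn separately for each array, without the pairing by replicate number given below. The simulation therefore cannot show how the fit performs on paired arrays. The number of arrays, 3 per group, limits the precision, and since each is a pool of 3 mice, the spread is that between pools.

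Replicate numbers paired the MgH2 arrays: deviations of the ratios from the group means correlated at 0.37 to 0.65 between arrays of the same number (9 pairs) and at -0.43 to 0.053 otherwise. For the 14-day arrays the same-number values were -0.041 to 0.29. The members and gene lists were chosen with earlier results of these data known. Named are members called in a group (up to 10 in each direction), the highest and lowest of each complex, members not above background, members whose probes differ in sign, and listed genes that were called, together with Ppargc1a, Nrf1, Gabpa, Esrra, Tfam, Cyc1 and Cycs. Alternatives changed the scaling, the background correction, the filter on dim probes, the arrays in the fit, the blocks and the choice of probe. Promoter sequences are from RefSeq (GRCm38.p6). Values of some members are not reported here, but these members are in all counts and medians.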

Additional observations from a re-analysis of the deposited data

Results flagged for a closer look

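No member differed between groups in the fit over all 12 arrays without a block. Among the listed pathway genes outside the symbol rule, 8 differences between groups passed it by limma. Some cell type markers also passed and are not counted here. The pathway lists held 32 assembly factors, 11 genes for carriers and exchange, 16 regulators and 14 citric acid cycle genes tested in these contrasts. Of all probes, 6.98% were called for 7 days minus 1 day and 6.61% for 14 days minus 7 days. Between 7 days and 1 day of MgH2, Nrf1 was higher by 0.33 on the log2 scale (adjusted P = 0.0119), Polrmt by 0.24 (adjusted P = 0.0393) and Slc25a5, an ADP/ATP carrier, by 0.22 (adjusted P = 0.0422). Between 14 days of H2-water and 7 days of MgH2, Ucp2 was higher by 0.59 (adjusted P = 0.031), Acad9 by 0.25 (adjusted P = 0.045), Cox19 by 0.21 (adjusted P = 0.0364) and Bcs1l, an assembly factor of complex III, by 0.18 (adjusted P = 0.0364), while Nrf1 differed by -0.29 (adjusted P = 0.0155). A constant dye offset cancels in these differences, but whether it was constant between slides was not tested. For 14 days minus 7 days, the agent, control, slide and software version differ with the group and cannot be told apart. Each of the 8 lost its call when any 1 replicate number was left out, with adjusted P from 0.0523 for Nrf1 (7 days minus 1 day) to 0.288 for Acad9. With the slide as a block, the adjusted P of 7 days minus 1 day was 0.423 for Nrf1, 0.834 for Polrmt and 0.56 for Slc25a5.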

How the results depend on the processing

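For 58 group means of called members, 638 values under the alternatives comprised 439 that stayed called, 199 that lost the call and 0 that changed sign. Several of these alternatives keep the same ratios and change only the spread or the filter. A mean of 3 ratios with 1 sign also keeps that sign when an array is left out, so the count of 0 was nearly fixed in advance. The choice of probe, on which the signs of Sdhb and Atp5j2 depended, was not among these alternatives. The median of the members at 1 day did change sign, to -0.028 with each channel divided by its total and to -0.019 without replicate 1. The counts of members called changed more. With replicates left out in turn, 1 to 4 members were higher and 0 to 3 lower at 1 day, 15 to 16 and 0 to 3 at 3 days, 8 to 11 and 2 to 3 at 7 days, and 2 to 2 and 0 to 2 at 14 days. Of the 19561 to 21017 probes tested in these fits, 307 to 453 were higher and 104 to 319 lower at 1 day. The counts over all probes were 1211 to 1601 and 851 to 1348 at 3 days, 1561 to 2132 and 1526 to 1875 at 7 days, and 310 to 385 and 128 to 187 at 14 days. With each channel divided by its total, which moved the median of all probes to between -0.038 and -0.019, the counts higher and lower were 5 and 7 at 1 day, 19 and 5 at 3 days, 10 and 7 at 7 days and 10 and 5 at 14 days, and the medians of the members were 0.041 at 3 days and 0.015 at 14 days. With no filter on dim probes the counts of members were 1 and 0, 13 and 0, 9 and 2, and 10 and 3. Over all probes, 39374 to 39426 in a group, they were 470 and 244, 1334 and 1096, 6133 and 2427, and 1004 and 1313. When the arrays compared were fitted alone the counts of members were 0 and 0, 0 and 0, 1 and 0, and 0 and 0. For this fit and the channel totals, the counts over all probes are given above. With normexp and loess, 1 member was lower at 3 days. Without the Ndufaf genes, 2 were lower at 7 days. The methods' t-test at an unadjusted threshold gave 15 and 6, 24 and 1, 19 and 5, and 27 and 8, and after Benjamini-Hochberg adjustment 0 higher and 0 lower in every group. Over all probes, the unadjusted threshold was passed by 2906 of 19660, 3807 of 19414, 4935 of 19455 and 3993 of 20411 at 1, 3, 7 and 14 days. After the adjustment 64, 17, 63 and 25 of all probes passed. The replicate block left the counts in the 4 groups at 12 and 6, 27 and 4, 18 and 4, and 19 and 4. It gave 1 member lower at 14 days than at 7 days (Cox6b2, -0.18, adjusted P = 0.0473). A replicate block over the MgH2 arrays only, chosen after seeing the data, gave 1 member lower at 7 days than at 1 day (Uqcr11). For 7 days minus 1 day, 1 member was higher with normexp and loess and 1 with the mean of all probes of a gene. The median difference of 14 days minus 7 days ran from -0.0096, without replicate 2, to 0.036 with replicates left out. The causes of these changes were not tested. Fits that leave arrays out also hold fewer arrays.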
